A study of Mus musculus with 20 samples.

Results

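The mitochondrial genome of the mouse carries its own small set of genes, named with the prefix mt-. All rows of the deposited expression table whose gene name starts with mt- were taken, which gave 28 of its 34234 genes. They are 13 protein genes, 2 ribosomal RNA genes (mt-Rnr1 and mt-Rnr2) and 13 transfer RNA genes. The GENCODE annotation lists 37 mitochondrial genes, and the 9 others, all transfer RNA genes, were not analysed here. Each of the 28 reached 1 TPM (a transcript's share of its library, scaled for its length) in at least 5 of the 20 libraries, so all were tested.

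Bulk total RNA came from kidney tumours of 20 mice, 1 library each, and the tumours derive from MSRT1, a cell line that the labels call renal medullary carcinoma. The 4 groups hold 5 mice each. Veh_IgG mice received vehicle and the control antibody IgG, GYY_IgG mice received GYY4137, a slow donor of hydrogen sulfide, with IgG, Veh_PD1 mice received vehicle with an antibody against the checkpoint receptor PD1, and GYY_PD1 mice received both GYY4137 and the PD1 antibody. All 4 groups carry tumours of the same line, and the strain and age of the mice, the doses and the times are not given in the sources used here. Smarcb1, the chromatin remodelling gene that renal medullary carcinoma typically lacks, was measured at 1.17 to 46.6 TPM across the libraries, and tumour cells cannot be told apart there from host stroma. In bulk tissue, fewer cells of a type and less RNA per cell cannot be told apart either.

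Both strands of the circular mitochondrial genome are transcribed as long precursors. One promoter region serves the heavy-strand transcript, which gives 12 of the 13 protein messages, both ribosomal RNAs and most transfer RNAs. The opposite, light-strand transcript gives mt-Nd6 and the remaining transfer RNAs, and the precursors are cut at the transfer RNAs. The proteins are core subunits of respiratory complexes I, III and IV and of the ATP synthase, complex V, whose other subunits come from nuclear genes, and kidney epithelium is known for its dense mitochondria. Hydrogen sulfide can both feed electrons into this chain and, at high levels, inhibit complex IV.

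Several mitochondrial genes have copies in the nuclear genome, and the sequences below show why the levels of members differ in how they can be read. The first pairs are members against annotated nuclear pseudogenes, from the GENCODE M21 transcripts (mouse build GRCm38), written 5′ to 3′ along the gene, with differing bases in capitals. Positions count from 1 at the first base of the member.
mt-Co2, bases 1 to 60: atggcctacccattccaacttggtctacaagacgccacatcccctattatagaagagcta
Gm28661, same bases: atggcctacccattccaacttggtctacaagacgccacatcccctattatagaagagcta
mt-Nd3, bases 1 to 60: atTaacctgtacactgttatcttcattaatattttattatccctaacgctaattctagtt
Gm28438, same bases: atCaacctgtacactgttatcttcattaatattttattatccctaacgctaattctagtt
mt-Co1, bases 1063 to 1142: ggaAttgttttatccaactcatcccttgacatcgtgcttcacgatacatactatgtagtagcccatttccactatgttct
Gm29216, same bases: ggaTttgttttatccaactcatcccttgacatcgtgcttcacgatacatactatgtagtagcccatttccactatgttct
Gm13340, same bases, capitals against mt-Co1: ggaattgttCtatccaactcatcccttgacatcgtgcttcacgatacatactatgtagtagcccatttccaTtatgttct

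The pseudogene Gm28661 (chr1:24614885-24615565, minus strand) matched mt-Co2 without a difference over 681 bases. Gm28438 (chr1:24612775-24613119, minus strand) differed from mt-Nd3 in 1 base of 345, written T3C. Gm29216 (chr1:24615706-24616197, minus strand) covers only the last 483 bases of mt-Co1, with 1 difference, A1066T. Gm13340 (chr2:22588103-22589647, minus strand) spans all 1545 bases of mt-Co1 but differs at 37 of them, among which T1072C and C1134T lie in the bases shown. On chromosome 1 the copies of mt-Nd4, mt-Nd4l, mt-Nd3, mt-Co3, mt-Atp6, mt-Co2 and mt-Co1 lie next to each other.

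A further set shows members that abut or overlap a neighbour, in part on opposite strands, which the results on strand turn on. The shared bases of overlapping genes are in capitals.
mt-Nd5, last 34 bases, plus strand: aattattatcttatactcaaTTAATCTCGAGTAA
mt-Nd6, last 34 bases, minus strand: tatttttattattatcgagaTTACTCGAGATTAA
mt-Te, whole gene, minus strand: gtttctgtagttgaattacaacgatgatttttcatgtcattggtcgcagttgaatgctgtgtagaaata
mt-Tt, whole gene, plus strand: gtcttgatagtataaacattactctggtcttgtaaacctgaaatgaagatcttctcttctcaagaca
mt-Tp, whole gene, minus strand: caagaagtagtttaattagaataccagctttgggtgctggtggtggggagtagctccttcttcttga

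The genes mt-Nd5 (chrM:11742-13565, plus strand) and mt-Nd6 (chrM:13552-14070, minus strand) share 14 bases, where their ends run past each other. The transfer RNA gene for glutamate, mt-Te (chrM:14071-14139, minus strand), directly adjoins mt-Nd6. The genes for threonine, mt-Tt (chrM:15289-15355, plus strand), and proline, mt-Tp (chrM:15356-15422, minus strand), meet end to end. Of the 28 members, 20 lie on the plus strand, which carries the heavy-strand transcript's genes, and 8 on the minus strand: mt-Nd6 and 7 transfer RNA genes.

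The libraries differed in ways that touch every value below. The deposited values are log2 TPM without read counts, so the depth is unknown and no counting interval can be given. Transcript models that resemble satellite repeats held 3.53% to 13.2% of TPM in Veh_IgG libraries and 25.8% to 83.4% in GYY_PD1 libraries, and TPM shares of all other genes shrink where that share is large. GYY_PD1 replicate 4 had the largest share, 83.4%. GYY_PD1 replicate 1 stood apart by its ranking of genes, where Spearman correlations with the others had a median of 0.389, against 0.803 or more for each of the other 19. In that library the antisense member had the higher TPM in 83.8% of 359 nuclear pairs of a coding gene and an overlapping noncoding gene on the opposite strand, against 1.67% to 2.23% in the other 19. Values from fits or groups that hold it are given with and without it where both bear on a result below, and no cause was tested.

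Levels per length separated the members into tiers. Over the 20 libraries mt-Nd1, mt-Nd2, mt-Co1 and mt-Cytb had median levels of 8594, 8553, 8483 and 7685 TPM. These encode 2 subunits of complex I, the catalytic subunit of complex IV and the cytochrome b of complex III. The order among these 4 is not a difference, since the ratio of mt-Nd1 to mt-Nd2 within a library ran from 0.859 to 1.13 and that of mt-Cytb to mt-Nd2 from 0.831 to 1.07. The complex I subunits mt-Nd5 and mt-Nd4 followed at medians of 5448 and 3265 TPM. Outside GYY_PD1 replicate 1, mt-Nd5 stood at 0.503 to 0.734 of mt-Nd2 and mt-Nd4 at 0.334 to 0.456, so both lay below mt-Nd2 in each of those 19 libraries.

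The only protein message of the light strand, mt-Nd6, another complex I subunit, had a median of 1158 TPM. In Veh_IgG it was 1248, 1701, 1208, 1107 and 1546 TPM in replicates 1 to 5. In the same replicates mt-Cytb was 11183, 12263, 13391, 8835 and 12246 TPM. Thus mt-Nd6 stood at 9.02% to 13.9% of mt-Cytb in the vehicle and IgG group.

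Members with a near full-length nuclear copy were far lower. Median levels were 55.3 TPM for mt-Co2 and 25.3 for mt-Co3, the other mitochondrial subunits of complex IV, and 29.3 for mt-Atp6, a membrane subunit of complex V. The small complex I subunits mt-Nd4l and mt-Nd3 had medians of 11.5 and 3.28 TPM. These 5 genes are the protein members in which 98.0% or more of all 50-base words also occur in another annotated transcript. That share was 62.2% for mt-Nd4 and 51.1% for mt-Co1, whose copies are partial, 8.19% for mt-Nd2, 7.61% for mt-Nd5, and 0 for mt-Nd1, mt-Nd6 and mt-Cytb.

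The pseudogenes themselves were listed with levels of the same order as these members. Gm28661 had a median of 99.1 TPM beside 55.3 for mt-Co2, Gm10925 74.0 beside 29.3 for mt-Atp6, and Gm28437 26.4 beside 25.3 for mt-Co3. The sum of mt-Co2 and Gm28661 came to 1.22% to 2.68% of mt-Cytb over the 20 libraries. Adding the copy therefore does not bring mt-Co2 to the level of mt-Cytb. How the submitters' tools treated reads that match several places is not given in the sources used here, and its part in these low levels was not tested. The levels of these 5 members are reported as uncertain.

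One member was low without an annotated copy. mt-Atp8, the other mitochondrial subunit of complex V, is 204 bases long and had a median of 69.4 TPM, with 0% of its 50-base words in another transcript. It overlaps mt-Atp6 by 43 bases (chrM:7927-7969). Only annotated transcripts were searched for copies. mt-Atp8 lies between mt-Co2 and mt-Atp6, whose copies Gm28661 and Gm10925 are neighbours on chromosome 1. The bases between these copies (chr1, from 24614651 to 24614885) were not compared with mt-Atp8, so its level is also uncertain. The large and small ribosomal RNAs were low as well, at medians of 60.3 TPM for mt-Rnr2 and 45.9 TPM for mt-Rnr1, and no annotated copy shares a 50-base word with either. Whether the preparation of the libraries lowered them was not tested, so their levels are uncertain too.

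The 13 transfer RNAs, all shorter than 80 bases, were low and often listed at 0. mt-Tl1, mt-Tc and mt-Ts1 were listed at 0 in 13, 12 and 9 of the 20 libraries, mt-Tv in 6, mt-Ty in 3, mt-Ti and mt-Ta in 2 each, and mt-Tm and mt-Tw in 1 each. mt-Te, mt-Tp, mt-Tq and mt-Tt were above 0 in each library, with medians of 99.7, 171, 111 and 64.2 TPM. The median was 79.9 TPM for mt-Ti, 123 for mt-Tm, 96.1 for mt-Tw, 37.1 for mt-Ta, 15.8 for mt-Ty, 13.1 for mt-Tv and 4.90 for mt-Ts1. mt-Tl1 and mt-Tc had a median of 0, and mt-Tl1 reached at most 17.4 TPM. A mature transfer RNA is folded and modified and is poorly captured by standard RNA-seq, and whether these values come from mature RNA or precursors was not tested.

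**Figure D1:**
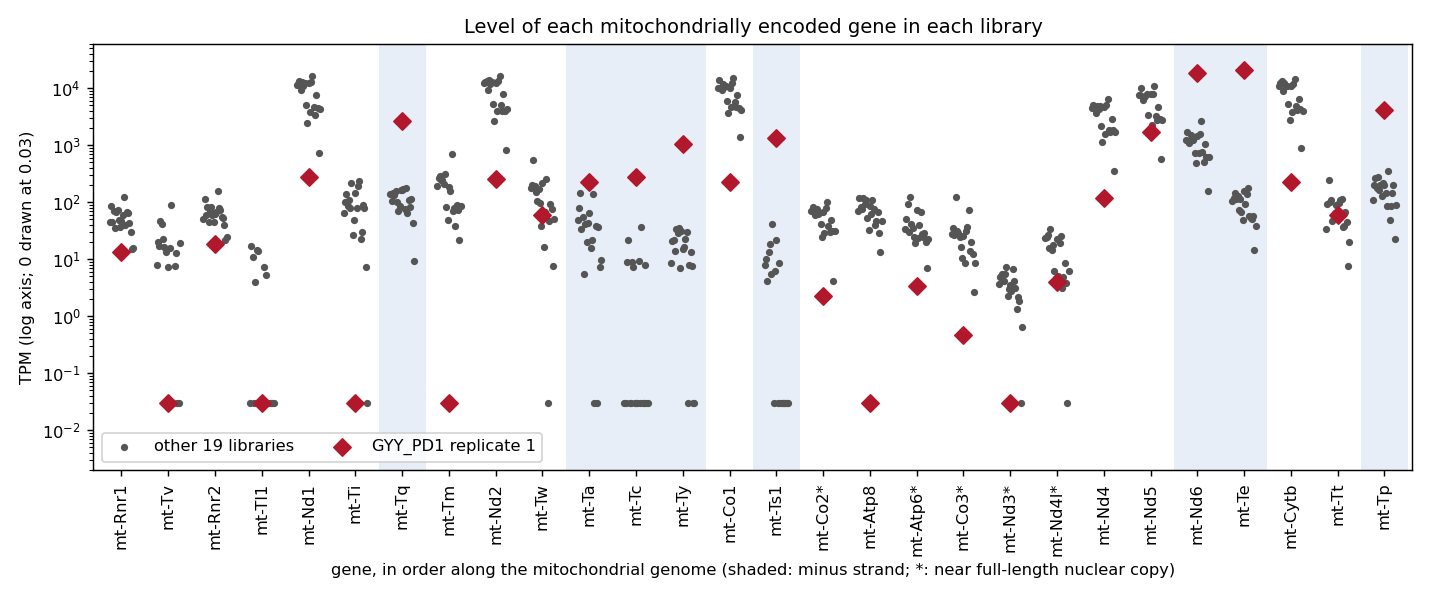
TPM of each of the 28 mitochondrial genes (log axis, values of 0 drawn at 0.03) in genome order; grey points are 19 libraries and red diamonds are GYY_PD1 replicate 1. The 6 genes mt-Nd1, mt-Nd2, mt-Co1, mt-Nd4, mt-Nd5 and mt-Cytb form the top tier in the 19 libraries, and the red diamonds lie above the grey points at the 8 shaded minus-strand genes.

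Together the 28 members took a varying share of the library. The share was 5.98%, 6.76%, 6.83%, 4.96% and 6.66% of TPM in Veh_IgG replicates 1 to 5. It was 5.87%, 6.30%, 2.91%, 1.60% and 6.15% in GYY_IgG, and 2.19%, 6.71%, 8.52%, 2.69% and 2.20% in Veh_PD1. In GYY_PD1 it was 5.26%, 3.91%, 2.35%, 0.508% and 2.25%. The Veh_IgG libraries lay close together, while GYY_IgG and Veh_PD1 each spread from below to about the level of Veh_IgG or above it. Across groups of libraries rather than treatments, the 10 libraries with under 20% satellite-like TPM had a member share of 4.96% to 8.52%. In the 9 with more, leaving out GYY_PD1 replicate 1, it was 0.508% to 3.91%. The 2 ranges do not overlap, but GYY_PD1 replicate 1, with 53.6% satellite-like TPM and a member share of 5.26%, lies within the first. TPM sum to a constant, so a larger satellite-like share by itself lowers the share left for all other genes.

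Because of this, each gene was also set against its own library: the log2 TPM minus the median log2 TPM of the 15422 genes tested, called the relative level below. On this scale the 6 top-tier heavy-strand genes together (their median) stood 10.33 ± 0.29 log2 units above the library median in Veh_IgG (SD, n = 5). The value was 10.06 ± 0.36 in GYY_IgG and 10.44 ± 0.31 in Veh_PD1 (SD, n = 5 each). In GYY_PD1 it was 9.68 ± 0.60 (SD, n = 5), and 9.93 ± 0.26 without replicate 1 (SD, n = 4). The group means thus span less than 1 log2 unit, and the ranges of all 4 groups overlap. Libraries with under and over 20% satellite-like TPM also overlap on this scale, at 9.93 to 10.98 and 9.56 to 10.59. The second range leaves out GYY_PD1 replicate 1, which had over 20% and stood at 8.68.

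**Figure D2:**
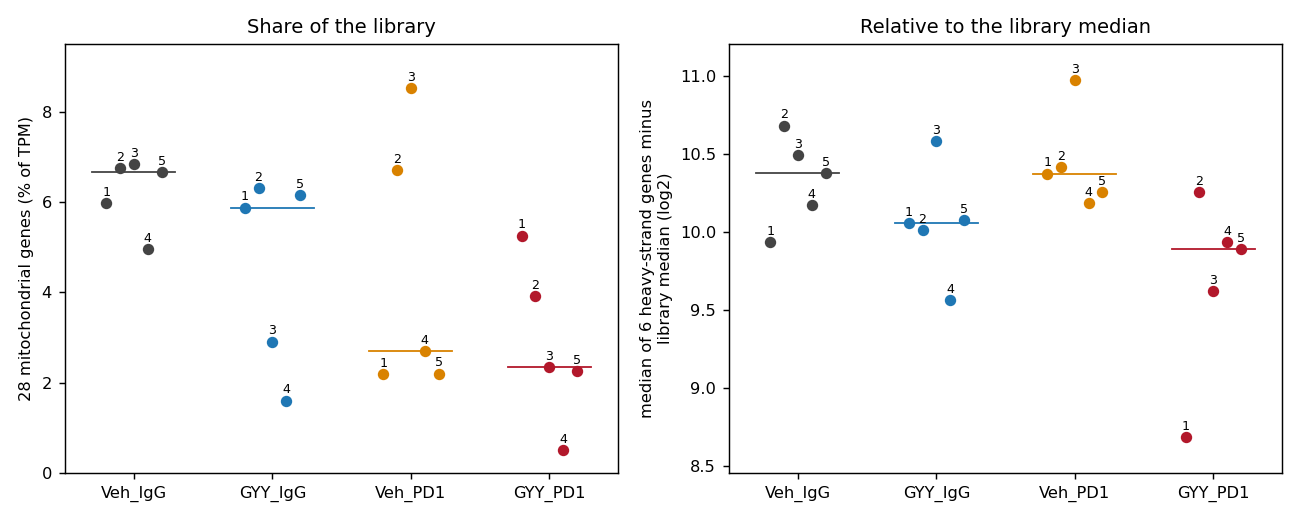
Left, share of TPM held by the 28 members; right, median of 6 heavy-strand genes minus the library median (log2); each point is a library with its replicate number, and bars are group medians. The spread of the left panel, 0.508% to 8.52%, narrows on the right, where GYY_PD1 replicate 1 is lowest at 8.68.

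The design asks whether GYY4137, the PD1 antibody or both change these genes. limma was run on the relative level of all 15422 genes over the 20 libraries, with Benjamini-Hochberg adjustment over all genes and calls at an adjusted p under 0.05. It called 0 of the 28 members in each of 8 comparisons: the 5 pairs of groups, the 2 averages over the other factor, and the interaction. It called 0% of all genes in 7 of them, and 0.00648% (1 gene) in GYY_PD1 against Veh_PD1. At an unadjusted p under 0.05 it listed 0 members in GYY_IgG against Veh_IgG, 3 in Veh_PD1 against Veh_IgG, and 4 in GYY_PD1 against Veh_IgG. Among all genes the same counts were 178, 273 and 2605 of 15422. Without GYY_PD1 replicate 1 the calls were again 0 members and at most 0.00648% of genes in each comparison.

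For the complex I gene mt-Nd1, relative levels in Veh_IgG were 10.05, 10.67, 10.69, 10.25 and 10.46. In GYY_PD1 they were 8.89, 10.38, 9.75, 9.86 and 9.95. The groups overlap, with replicate 1 the lowest of GYY_PD1. The difference was -0.66 ± 0.58 (SE; limma adjusted p = 0.485), and -0.44 ± 0.45 without replicate 1 (adjusted p = 0.672).

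mt-Cytb, the only mitochondrial gene of complex III, gave relative levels of 10, 10.70, 10.71, 10.14 and 10.39 in Veh_IgG. The GYY_PD1 values were 8.60, 10.15, 9.67, 10.12 and 9.87. Only replicate 2 of GYY_PD1 lies above the lowest 2 Veh_IgG values. The difference was -0.70 ± 0.57 (SE; limma adjusted p = 0.454), and -0.44 ± 0.43 without replicate 1 (adjusted p = 0.663).

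mt-Co1, the catalytic core of complex IV, stood at 9.87, 10.92, 10.29, 10.24 and 10.37 in Veh_IgG and at 8.60, 10.36, 9.74, 10.76 and 9.92 in GYY_PD1. Its difference was -0.46 ± 0.62 (SE; limma adjusted p = 0.647), and -0.14 ± 0.47 without replicate 1 (adjusted p = 0.914). For the remaining top-tier genes the differences were -0.73 for mt-Nd2, -0.55 for mt-Nd4 and 0.04 for mt-Nd5 (limma adjusted p = 0.455, 0.382 and 0.968). Without replicate 1 they were -0.48, -0.33 and -0.38 (adjusted p = 0.644, 0.597 and 0.643), so the sign for mt-Nd5, the gene that overlaps mt-Nd6, turned. Without replicate 1 all 6 point estimates are below 0, with none at an unadjusted p under 0.05.

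The 4 members at an unadjusted p under 0.05 in GYY_PD1 against Veh_IgG were mt-Nd3, mt-Co2, mt-Co3 and mt-Ti. The first 3 are among the members with a near full-length copy, and the limma adjusted p ran from 0.231 for mt-Nd3 to 0.287 for mt-Co3. mt-Nd3 was 3.68, 4.97, 5.04, 5.48 and 4.12 TPM in Veh_IgG and 0, 2.17, 1.89, 0 and 0.651 TPM in GYY_PD1. Its estimate thus rests in part on libraries listed at 0. Relative levels of mt-Co3 were 1.37, 2.28, 1.73, 3.98 and 1.77 in Veh_IgG and -0.34, 1.80, 1.22, 1.76 and 1.01 in GYY_PD1. The mt-Co3 estimate thus rests in part on Veh_IgG replicate 4, the highest there, and on GYY_PD1 replicate 1, the lowest. The transfer RNA mt-Ti was 64.4, 99.9, 140, 87.7 and 110 TPM in Veh_IgG and 0, 88.5, 80.7, 7.38 and 0 TPM in GYY_PD1, where 2 libraries are listed at 0 and 2 overlap with Veh_IgG. mt-Co2 had relative levels of 2.71, 3.5, 3.28, 2.96 and 3.07 in Veh_IgG, 3.33, 3.17, 3.79, 3.27 and 3.31 in Veh_PD1, and 1.92, 3.12, 2.59, 2.39 and 2.87 in GYY_PD1. In GYY_PD1 against Veh_PD1, limma listed 1988 of the 15422 genes at an unadjusted p under 0.05, and 58.8% of all genes were below 0. Each GYY_PD1 value of mt-Co2 is below each Veh_PD1 value, and how many of all genes separate in this way was not counted. The difference from Veh_PD1 was -0.79 ± 0.22 (SE; limma unadjusted p = 0.0023, adjusted p = 0.325), and -0.63 ± 0.21 without replicate 1 (adjusted p = 0.289).

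In Veh_PD1 against Veh_IgG, the 3 members at an unadjusted p under 0.05 were mt-Rnr1, mt-Rnr2 and mt-Ts1. The relative level of mt-Rnr2, the large ribosomal RNA, was 2.23, 3.97, 2.92, 3.40 and 2.32 in Veh_IgG and 4.55, 4.12, 3.42, 4.17 and 4.21 in Veh_PD1. The groups overlap only through Veh_IgG replicate 2, which lies above Veh_PD1 replicate 3. The difference was 1.13 ± 0.46 (SE; limma unadjusted p = 0.0245, adjusted p = 1.00). In GYY_PD1 against Veh_IgG it was 0.70 ± 0.46 (adjusted p = 0.382), and 0.38 ± 0.44 without replicate 1 (adjusted p = 0.715). mt-Ts1 was listed at 0 in 4 of the 5 Veh_PD1 libraries, so no fold is given.

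The calls in this comparison depended on the scale and on GYY_PD1 replicate 1. On the deposited log2 TPM with no adjustment for the library median, limma called 19 of the 28 members lower in GYY_PD1 than in Veh_IgG, beside 70.2% of all genes tested. The median difference on that scale was -2.09 over all genes and -2.52 over the members. The members called were the 12 heavy-strand protein genes, both ribosomal RNAs and the transfer RNAs mt-Ti, mt-Tm, mt-Ts1, mt-Tt and mt-Tv. When GYY_PD1 replicate 1 was also left out, an alternative chosen after seeing the data, 0 members and 0.0843% of genes were called on the deposited scale. The median difference was then still -1.50 over all genes and -1.89 over the members. At an unadjusted p under 0.05 limma listed 24 of the 28 members and 10255 of the 15422 genes without replicate 1, against 19 and 11421 with it. On this scale the members thus stand beside a background in which most genes were lower.

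The comparison of strands asks whether mt-Nd6 moved with the heavy-strand genes. In every library except GYY_PD1 replicate 1 the summed TPM of the 12 heavy-strand protein genes was 27.5 to 53.8 times that of mt-Nd6. As a percentage of that sum, mt-Nd6 was 2.17, 2.64, 1.86, 2.35 and 2.43 in Veh_IgG. It was 2.30, 2.09, 2.70, 3.35 and 2.44 in GYY_IgG, and 3.63, 2.48, 3.34, 2.98 and 2.44 in Veh_PD1. In GYY_PD1 it was 663, 2.84, 2.86, 3.26 and 2.87.

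GYY_PD1 replicate 1 was thus reversed between strands. Its mt-Nd6 level was 18794 TPM, 17.0 times the median of the other 19 libraries. The transfer RNA genes of the same strand were also at their highest of the 20 libraries: mt-Te at 21013 TPM, mt-Tp at 4153, mt-Tq at 2693, mt-Ts1 at 1369, mt-Ty at 1060, mt-Tc at 272 and mt-Ta at 223. All 8 minus-strand members were highest there and none of the 20 plus-strand members was.

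Plus-strand members were low in the same library. mt-Nd1, mt-Nd2, mt-Co1, mt-Nd4 and mt-Cytb were at 280, 256, 229, 118 and 229 TPM, or 2.43% to 3.19% of their medians in the other 19. Of the 20 plus-strand members, 12 had their lowest value of all 20 libraries there. mt-Nd5, which overlaps mt-Nd6 on the opposite strand, was less low at 1715 TPM, or 27.8% of its median. The neighbours mt-Tt and mt-Tp, printed above, parted: mt-Tt stood at 58.9 TPM, 0.909 of its median in the other 19, and mt-Tp at 4153 TPM, 25.2 times its median.

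The reversal was not particular to the mitochondrial genome, since 301 of the 359 nuclear pairs also had more antisense than coding TPM there, as given above. The deposited values are already summed per gene, and the strand setting used for each library is not given in the sources used here. What set this library apart was not tested.

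**Figure D3:**
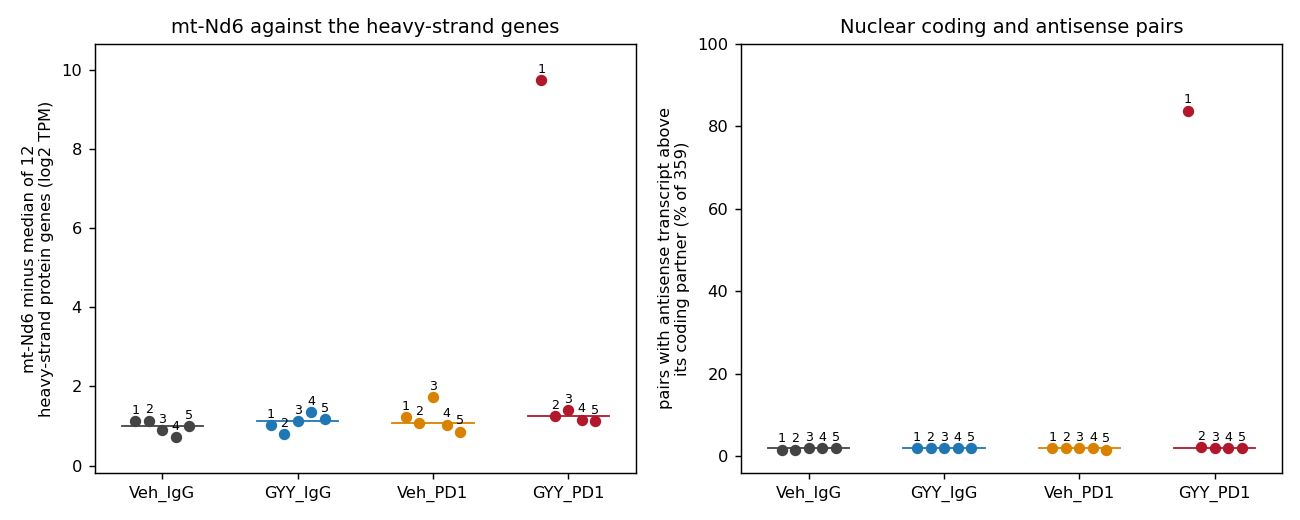
Left, mt-Nd6 minus the median of the 12 heavy-strand protein genes (log2 TPM); right, percent of 359 nuclear coding and antisense pairs in which the antisense gene had the higher TPM; points are libraries with their replicate numbers and bars are group medians. GYY_PD1 replicate 1 is at 9.75 on the left and 83.8% on the right, far above the other 19 libraries in both.

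For the test, mt-Nd6 was set against the median log2 TPM of the 12 heavy-strand protein genes. Group values were 0.97 ± 0.17 in Veh_IgG, 1.1 ± 0.20 in GYY_IgG and 1.19 ± 0.33 in Veh_PD1 (SD, n = 5 each). In GYY_PD1 the value was 2.94 ± 3.81 (SD, n = 5), and 1.24 ± 0.12 without replicate 1 (SD, n = 4). By limma with Benjamini-Hochberg adjustment, mt-Nd6 was not called in any of the 8 comparisons, and on this scale 0% of genes were called in 7 of them and 0.0324% in GYY_PD1 against Veh_PD1. The fit shares its spread over all groups, so GYY_PD1 replicate 1 also widened comparisons that do not use it. For GYY_IgG against Veh_IgG the estimate was 0.12 ± 1.12 with that library and 0.12 ± 0.19 without it (SE). Without it mt-Nd6 was again not called in any of the 8 comparisons.

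The estimate for GYY_PD1 against Veh_IgG was 1.96 ± 1.12 (SE; limma adjusted p = 0.444). Without GYY_PD1 replicate 1 it was 0.26 ± 0.20 (adjusted p = 0.762), beside 0.013% of all genes called. The interaction likewise went from 1.63 to -0.07. The 12-gene median falls between the tier of high genes and the tier of genes with copies, so mt-Nd6 was also set against other references, chosen after seeing the data where replicate 1 was left out as well. Without replicate 1, the GYY_PD1 difference from Veh_IgG was 0.45 against mt-Cytb alone and 0.42 against the 6 top-tier genes (limma adjusted p = 0.231 and 0.298). With replicate 1 the same differences were 2.25 and 2.20 (adjusted p = 0.201 and 0.236). In the percentages above, the 4 other GYY_PD1 values, 2.84 to 3.26, lie above all 5 Veh_IgG values, 1.86 to 2.64. The Veh_PD1 values, 2.44 to 3.63, overlap both. All Veh_IgG libraries had under 20% satellite-like TPM and all GYY_PD1 libraries had more. Over the 10 libraries under 20% the percentage had a median of 2.39 (range 1.86 to 3.34). Over the 9 with more, without GYY_PD1 replicate 1, it had a median of 2.87 (range 2.44 to 3.63). How many of all genes separate in this way without replicate 1 was not counted. Between Veh_IgG and GYY_PD1 the treatment cannot be told apart from the satellite-like share, whose part in this separation was not tested.

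Ratios among heavy-strand members also differed between libraries. mt-Rnr2 stood at 0.442%, 0.957%, 0.456%, 0.865% and 0.356% of mt-Nd1 in Veh_IgG. In GYY_IgG the values were 0.644%, 0.665%, 1.18%, 1.83% and 0.496%, and in Veh_PD1 1.75%, 1.22%, 0.483%, 1.58% and 1.64%. In GYY_PD1 they were 6.53%, 0.695%, 0.873%, 2.93% and 0.577%. The ratio thus varied within each group by more than 2-fold. Over the 10 libraries with under 20% satellite-like TPM its median was 0.570% (range 0.356% to 1.22%), and over the 9 with more, without GYY_PD1 replicate 1, it was 1.58% (range 0.577% to 2.93%).

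The ratio of mt-Co1 to mt-Nd2 followed a like order. It was 0.743 to 1.11 in the 10 libraries with under 20% satellite-like TPM. In the 9 others, leaving out GYY_PD1 replicate 1 (0.893), it was 0.945 to 1.67, with the highest value in GYY_PD1 replicate 4. By contrast, mt-Nd5 to mt-Nd2 was 0.503 to 0.734 in the first set and 0.571 to 0.721 in the second. The small and large ribosomal RNAs had a ratio of mt-Rnr1 to mt-Rnr2 that ran from 0.511 to 1.15 over the 20 libraries. These sets of libraries were defined from the data and are not the study's groups, 4 of the 9 are GYY_PD1 libraries, and the part of the satellite-like share in the ratios was not tested.

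**Figure D4:**
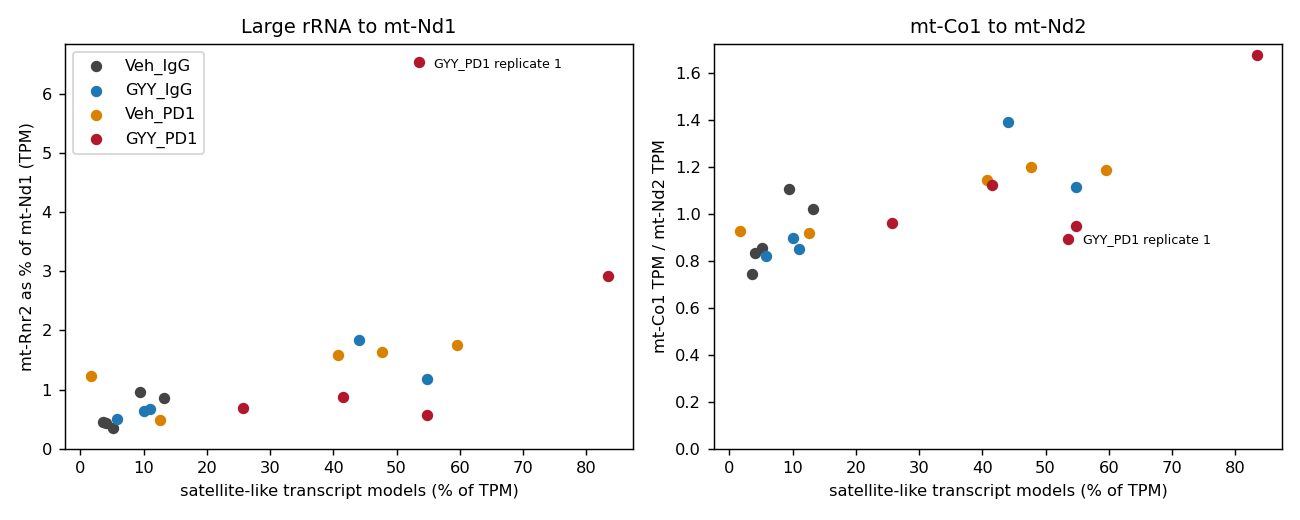
Ratio of mt-Rnr2 to mt-Nd1 (left, in percent) and of mt-Co1 to mt-Nd2 (right) against the share of TPM in satellite-like models, one point per library, coloured by group. The highest mt-Co1 ratio, 1.67, is in the library with the highest satellite-like share, 83.4%, and GYY_PD1 replicate 1 is highest on the left at 6.53%.

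Among the members with near full-length copies, single libraries departed from a steady ratio. mt-Co3 stood at 0.342 to 0.428 of mt-Co2 in 4 Veh_IgG libraries and at 2.03 in replicate 4. In Veh_PD1 it stood at 0.296 to 0.473 in 4 libraries and at 1.89 in replicate 4. The levels of mt-Co3 there were 123 and 74.0 TPM, while mt-Co2 was 60.7 and 39.2 TPM. In the other 18 libraries the ratio was at most 0.647, so these 2 libraries stood apart from all others. Both carry the number 4, but the numbers were not found to pair libraries across groups.

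The identical pseudogene Gm28437 did not show the same departure: its ratio to Gm28661 was 0.286 in Veh_IgG replicate 4, within the 0.249 to 0.301 of that group, and 0.394 in Veh_PD1 replicate 4, within that group's 0.232 to 0.480. mt-Atp6 to mt-Co2 varied too, but in different libraries. It was 0.481 and 0.605 in Veh_IgG replicates 1 and 2, 1.19 and 1.64 in replicates 3 and 5, and 0.492 in replicate 4. It was 1.06 in GYY_IgG replicate 5, and 1.51 and 1.66 in GYY_PD1 replicates 1 and 4. Each of these 2 genes shares 99.5% or more of its 50-base words with a nuclear copy, and whether the departures lie in the RNA or in the assignment of reads was not tested.

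**Figure D5:**
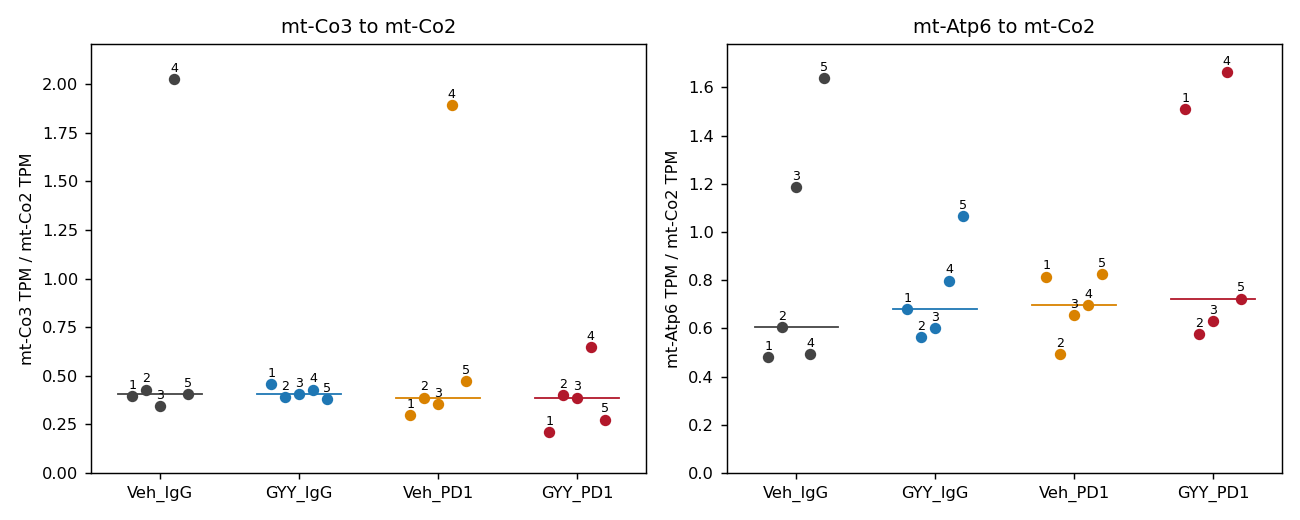
Ratio of mt-Co3 (left) and mt-Atp6 (right) to mt-Co2 in TPM, one point per library with its replicate number, bars at group medians. On the left, replicate 4 of Veh_IgG (2.03) and of Veh_PD1 (1.89) lie above all other libraries, and on the right other libraries are high.

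The nuclear partners of these proteins were compared from lists of respiratory subunits and of the machinery that copies, transcribes and processes mitochondrial RNA. Of 117 listed genes in 8 lists, 116 were in the table and tested, and limma called none in any of the 8 comparisons, beside the backgrounds of 0% and 0.00648% above. In GYY_PD1 against Veh_IgG without replicate 1, the median difference in relative level was -0.30 over the 36 nuclear subunits of complex I, -0.41 over 9 of complex III, -0.39 over 10 of complex IV and -0.25 over 15 of complex V. The median over all genes was -0.07. In these lists 33 of 36, 9 of 9, 9 of 10 and 15 of 15 genes had estimates below 0, beside 59.3% of all genes. With replicate 1 the medians were -0.36, -0.63, -0.61 and -0.55, against -0.17 over all genes. Then 33 of 36, 9 of 9, 10 of 10 and 14 of 15 were below 0, beside 62.4% of all genes.

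The other comparisons with Veh_IgG share its 5 control libraries. In GYY_IgG against Veh_IgG the medians were -0.15, -0.24, -0.28 and -0.17 for complexes I, III, IV and V, against -0.01 over all genes. There 34 of 36, 9 of 9, 10 of 10 and 15 of 15 nuclear subunits were below 0, beside 52.1% of all genes. In Veh_PD1 against Veh_IgG 16 of 36, 6 of 9, 1 of 10 and 11 of 15 were below 0, beside 56.5% of all genes. Since the nuclear subunits are measured in the same libraries as the members, the relation of the 2 sets can be read within a library.

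Within a library, the median of mt-Nd1, mt-Nd2, mt-Nd4 and mt-Nd5 stood 7.36 ± 0.34 log2 units above the median nuclear complex I subunit in Veh_IgG. For GYY_IgG the distance was 7.32 ± 0.28, for Veh_PD1 7.44 ± 0.27 and for GYY_PD1 7.12 ± 0.21 (SD, n = 5 each), or 7.16 ± 0.22 without replicate 1 (SD, n = 4). mt-Cytb stood 7.04 ± 0.22 above the nuclear complex III subunits in Veh_IgG and 7.14 ± 0.33 in GYY_PD1, or 7.16 ± 0.37 without replicate 1. mt-Co1 stood 5.96 ± 0.34 above those of complex IV in Veh_IgG and 6.23 ± 0.67 in GYY_PD1, or 6.38 ± 0.66 without replicate 1. For each complex the ranges of the 4 groups overlap, and their differences were not tested. In GYY_PD1 replicate 1 both the members and the nuclear subunits were low, so the complex I distance there was 6.99.

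By the smallest p in GYY_PD1 against Veh_IgG, the leading nuclear subunits were Ndufa11, Ndufb7, Ndufc2 and Ndufb5 for complex I and Uqcr11, Cyc1, Uqcrq and Uqcrh for complex III. Those of complex IV were Cox8a, Cox7a2, Cox6a1 and Cox5b, and those of complex V Atp5l, Atp5g1, Atp5e and Atp5f1. Atp5l, a subunit of the membrane part of the ATP synthase, had the smallest p, with -1.23 ± 0.23 (SE; limma adjusted p = 0.0869) and -1.17 ± 0.24 without replicate 1 (adjusted p = 0.0889). Ndufa11, an accessory subunit of complex I, had -1.22 ± 0.33 (adjusted p = 0.209) and -0.78 ± 0.15 without replicate 1 (adjusted p = 0.0702). Neither passed the threshold.

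Genes that transcribe the mitochondrial genome gave small differences without replicate 1. The RNA polymerase Polrmt had -0.36 ± 0.16 (limma adjusted p = 0.335), and the DNA-packaging factor Tfam, which also starts transcription, -0.28 ± 0.16 (adjusted p = 0.423). The initiation factor Tfb2m had -0.39 ± 0.19 (adjusted p = 0.36) and the elongation factor Tefm -0.76 ± 0.24 (adjusted p = 0.217). The terminator-binding Mterf1a had -0.65. All 10 genes of this list were below 0 and 0 were called. With replicate 1, in which Tfb2m and Mterf1a are listed at 0, 8 of the 10 were below 0. Polrmt, Tfam, Tfb2m, Tefm and Mterf1a then had -0.26, -0.45, -1.96, -0.89 and -1.74 (limma adjusted p from 0.210 to 0.400).

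Genes for the stability of mitochondrial RNA were Lrpprc and Slirp, partners in a complex that protects heavy-strand messages. Without replicate 1, Lrpprc differed by -0.12 ± 0.13 and Slirp by -0.18 ± 0.25 (limma adjusted p = 0.709 and 0.761), and with it by -0.31 and 0.96 (adjusted p = 0.353 and 0.460). Slirp was 108 TPM in GYY_PD1 replicate 1, against a mean of 34.3 TPM in Veh_IgG, while Lrpprc was 0.67 there against 21.3. The ribonuclease Rexo2 and the FASTK family members Fastkd1, Fastkd2 and Fastkd5 differed by -0.39, -0.46, -0.33 and -0.42 without replicate 1 and by -0.45, -0.84, -0.90 and -0.48 with it. In the list for replication and nucleotide supply, Rrm2b, Ssbp1, Dguok and Rnaseh1 differed by -0.20, -0.35, -0.36 and -0.20 without replicate 1, and 5 of its 10 genes were below 0. With it they differed by -0.44, -0.83, -0.38 and -1.74, where Rnaseh1 is listed at 0 in replicate 1, and 6 of the 10 were below 0.

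Among the regulators of mitochondrial biogenesis, the coactivator Ppargc1a was near the limit of the table, at a mean of 0.858 TPM in Veh_IgG, and differed by -0.09 ± 0.90 without replicate 1 (limma adjusted p = 0.975). Its relative Pprc1 and the factors Esrra, Gabpb1 and Nrf1 differed by 0.32, 0.18, 0.03 and 0.23. With replicate 1, in which Nrf1 is listed at 0, Ppargc1a, Pprc1, Esrra, Gabpb1 and Nrf1 differed by 0.18, 0.49, 0.57, 0.44 and -1.41. Of the 7 genes in this list 6 were above 0 both with and without replicate 1, though not the same 6, and 0 were called.

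Other tissue in the tumours also varied. Summed levels of 6 proximal tubule markers, the epithelium of normal kidney with the most mitochondria, ran from 1.78 to 439 in units of TPM rescaled to nuclear coding genes in Veh_IgG and from 21.3 to 443 in GYY_PD1. Those of 4 neutrophil markers ran from 79.5 to 1818 in Veh_IgG and from 9.5 to 5744 in GYY_PD1, with the highest value in GYY_PD1 replicate 4. The 5 erythroid markers summed to 409 to 1086 in Veh_IgG and 18.3 to 307 in GYY_PD1 (46.3 to 307 without replicate 1), without overlap. The 5 T cell markers also did not overlap but lay the other way. They summed to 6.05 to 9.79 in Veh_IgG and 22.6 to 84.5 in GYY_PD1, or 22.6 to 43.7 without replicate 1. In GYY_IgG they summed to 11.2 to 30.0, also without overlap with Veh_IgG, and in Veh_PD1 to 8.36 to 45.7. Erythroid sums were 203 to 796 in GYY_IgG and 253 to 1034 in Veh_PD1, both overlapping Veh_IgG. How many of all genes do not overlap between Veh_IgG and GYY_PD1 was not counted. For the 4 T cell markers tested the median difference was 2.19, and 1.62 without replicate 1, with 3 at an unadjusted p under 0.05 and 0 called by limma. The part of these cells in the levels of the 28 members was not tested.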

How the data were processed

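The authors deposited 1 table of log2 TPM per gene, and per the submitters' processing notes it was made with cutadapt, fastp, Salmon 0.14.1 and HTSeq 0.11.0 on build mm10, with no role or order given. Per the file's values no constant was added, and a floor of -8.88 stands for 0 TPM. TPM are scaled to a constant sum per library, so the depth is unknown and a share is relative to all other transcripts. Genes at 1 TPM or more in at least 5 libraries (15422) were kept, the library median was subtracted, and limma 3.58.1 (R 4.3.3) with trend was fitted to all 20 libraries with 16 residual degrees of freedom. For mt-Nd6 the median of the 12 heavy-strand protein genes was subtracted in its place. The limma script was tested on simulated, independent normal values. These held no library like GYY_PD1 replicate 1, no floor and no varying satellite-like share. Labels give biological replicates, and their numbers were not found to pair mice across groups.

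Copies were found with blastn 2.17.0 among GENCODE M21 transcripts (identity of at least 95% over at least 50 bases), and antisense pairs with bedtools 2.31.1 (coding median above 20 TPM). Satellite-like models are 13 transcripts with a tandem period of 225 to 240 bases that match Gm10800. Every member is named with its values, and from each list the genes with the 4 smallest p in GYY_PD1 against Veh_IgG, besides Tfam, Polrmt, Tfb2m, Tefm, Lrpprc, Slirp and Ppargc1a. The members, lists and markers were chosen with earlier results of these data known. Alternatives were other scales, pseudocounts, filters, samples, weights, a replicate block and each library left out.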

Additional observations from a re-analysis of the deposited data

Results flagged for a closer look

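Of 140 groups of 5 values checked for a single library far from the others (28 members and 7 ratios or sums in 4 groups), 21 had one. The cutoff would flag about 1 in 20 groups of independent, normally distributed values. These values are mostly TPM, which are skewed, and come from the same libraries, so the 21 cannot be set against that rate. GYY_PD1 replicate 1 accounted for 9: mt-Tq at 2693 TPM, mt-Ta at 223.5, mt-Tc at 272.5, mt-Ty at 1060, mt-Ts1 at 1369, mt-Nd6 at 18794, mt-Te at 21013 and mt-Tp at 4153, and the distance of mt-Nd6 from the heavy-strand median at 9.749 log2 units. All of these are high and all lie on the minus strand.

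In Veh_PD1, replicate 2 was high for mt-Rnr2 (155.3 TPM), mt-Tv (90.01), mt-Tm (702.8) and mt-Ts1 (8.574, with the others listed at 0). Replicate 3 of the same group was high for mt-Tw (259.4 TPM), mt-Ta (140.3) and the median of the 6 top-tier heavy-strand genes (10.98 log2 units above the library median), and replicate 4 for mt-Tc (37.58 TPM, with 9.344 or less in the others). In Veh_IgG, replicate 3 was high for mt-Tw at 546.1 TPM and replicate 4 for mt-Co3 at 123 TPM. The ratio of mt-Co3 to mt-Co2 stood out in Veh_IgG replicate 4 at 2.025 and in Veh_PD1 replicate 4 at 1.891. Their causes were not tested.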

How the results depend on the processing

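The count of members called was 0 under each alternative in 7 of the 8 comparisons. In GYY_PD1 against Veh_IgG it was 19 on the deposited scale and 0 under the 30 other alternatives. The count over leave-one-out fits was 0 throughout.

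The distance of mt-Nd6 from the heavy-strand genes passed the threshold in none of its comparisons or alternatives. Its interaction, 1.63, was -0.0595 with library weights, -0.0478 without GYY_PD1 replicates 1 and 4, -0.0527 without the 2 mice whose numbers in the labels stand apart (GYY_PD1 replicate 1 and GYY_IgG replicate 5), and -0.0729 to 2.08 when single libraries were left out. Without replicate 1 it was also -0.15 with summed TPM, -0.15 against mt-Cytb and -0.16 against the 6 genes without a full-length copy, all 3 added after seeing the data. The estimate of 1.96 for GYY_PD1 against Veh_IgG was 0.26 to 2.42 when single libraries were left out, with adjusted p from 0.109 to 0.805 over all alternatives.

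On the deposited scale the differences in GYY_PD1 against Veh_IgG were -2.57 for mt-Nd1, -2.62 for mt-Cytb and -2.37 for mt-Co1, past the threshold. mt-Nd6 was -0.37 on that scale, -1.42 on it without replicate 1, and -0.0928 on the main scale without replicates 1 and 4. mt-Rnr2 was -1.21, -1.05 and -0.0883 under the same 3 settings. With the replicate number as a replicate block, 0 members were called in each comparison, the mt-Nd6 estimate was 1.96 (adjusted p = 0.441) and no call changed. Same-numbered libraries had a median correlation of 0.01 in their deviations from the group means, and 7 of 20 correlated best with their own number, so the numbers are not treated as pairs.

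Depth is unknown, genes with nuclear copies, mt-Atp8, ribosomal RNAs and transfer RNAs are uncertain, and no result rests on protein or DNA.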
